A study of Mus musculus with 6 samples.

Results

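The genes described are those that attach the ubiquitin-like protein ISG15 to other proteins and take it off again: Isg15 itself, Uba7, Ube2l6, Herc6 and Usp18. They were found by their Entrez gene IDs, and all 5 were among the 36528 gene IDs of each count table. RNA sequencing had been done on HOXB-8 cells, mouse bone marrow progenitors of the myeloid lineage that are kept dividing by the homeobox factor HOXB8, in 6 libraries. The 3 libraries labelled IRF2_KO came from lines that received a guide RNA against Irf2, and the 3 labelled Parental from Irf2 wild-type cells with a control Luc guide; the extraction notes call both iMACs. The labels give no stimulus, no strain and no clone number for either group. Separate cultures are not recorded for the replicates, so the p-values rest on a spread that may be purely technical.

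ISG15 is made in response to interferon and is joined to lysines of other proteins in a cascade like that of ubiquitin. UBA7 is its activating enzyme, UBE2L6 its conjugating enzyme and, in the mouse, HERC6 its main ligase. USP18 is the protease that removes ISG15. Apart from this activity USP18 binds the interferon receptor chain IFNAR2, with the help of STAT2, and damps type I interferon signalling. IRF2 belongs to the interferon regulatory factors, which bind repeats of the letters GAAA in promoters of interferon-stimulated genes.

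The windows around the annotated starts are shown first because such repeats differ between the members. Each runs from 250 bases before the start to 50 after it (RefSeq, GRCm38.p6) and is written 5′ to 3′ on the strand of the gene. A window was at hand for 4 of the 5 genes; that of Usp18 is not shown. The searched motifs, on both strands, were the core of the interferon-stimulated response element, GAAANNGAAA, and the shorter AANNGAAA, which lies inside every copy of the first. Of 32851 promoter windows of the same length, 3.44% held the first and 23.9% the second. The Isg15 window (chr4:156200769-156201068, minus strand) held 3 overlapping copies of GAAANNGAAA in a single run from -78 to -57 relative to the start, in capitals below. Besides the AANNGAAA copies inside that run it held 1 more, on the opposite strand between -128 and -121, left in lower case. In the Uba7 window (chr9:107975317-107975616, plus strand) there was no copy of the longer motif and 1 of AANNGAAA, read on the opposite strand between -27 and -20, also in capitals. The Herc6 window (chr6:57580742-57581041, plus strand), shown because this gene differed from the others in expression, held neither. The Ube2l6 window (chr2:84798578-84798877, plus strand), not printed, held neither as well, and this gene was higher in IRF2_KO. Whether the motifs bear on expression was not tested.
Isg15: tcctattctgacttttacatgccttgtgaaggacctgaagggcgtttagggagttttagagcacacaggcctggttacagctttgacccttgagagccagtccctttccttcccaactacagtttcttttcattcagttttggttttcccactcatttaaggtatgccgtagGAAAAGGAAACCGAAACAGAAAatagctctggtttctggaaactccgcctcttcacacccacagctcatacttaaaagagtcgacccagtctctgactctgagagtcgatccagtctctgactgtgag
Uba7: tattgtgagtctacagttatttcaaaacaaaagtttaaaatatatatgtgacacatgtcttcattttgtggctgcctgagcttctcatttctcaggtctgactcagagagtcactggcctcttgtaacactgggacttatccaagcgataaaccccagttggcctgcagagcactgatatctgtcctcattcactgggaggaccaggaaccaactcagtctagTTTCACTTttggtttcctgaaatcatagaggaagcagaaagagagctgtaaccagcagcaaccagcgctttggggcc
Herc6: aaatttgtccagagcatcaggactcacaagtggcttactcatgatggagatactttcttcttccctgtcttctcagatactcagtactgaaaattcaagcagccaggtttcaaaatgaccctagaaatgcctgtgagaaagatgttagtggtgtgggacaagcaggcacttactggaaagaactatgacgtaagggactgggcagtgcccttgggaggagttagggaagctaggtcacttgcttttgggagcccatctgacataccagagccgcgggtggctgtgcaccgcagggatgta
These matches describe letters only. A STAT motif, TTCNNNGAA, and a composite of ETS and IRF half-sites, GGAANNGAAA, were found in none of the 4 windows, against 8.30% and 2.72% of all windows.

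The libraries held between 29070160 and 34051219 counted reads in IRF2_KO and between 33422590 and 39925038 in Parental. Irf2 stood at 40.3, 36.9 and 40.1 CPM in the IRF2_KO libraries and at 41.1, 42.4 and 41.1 CPM in the Parental libraries, where CPM is the usual unit of a gene's reads relative to its library's size, here with sizes adjusted by TMM. Its log2 fold change of -0.08 (SE 0.05, edgeR quasi-likelihood adjusted p = 0.209) did not pass the threshold of 0.05; a count per gene does not show whether the guide disrupted the coding sequence, so it does not check the labels. Of the genes that mark myeloid progenitors, all 8 were read in every group, among them Prtn3, Ctsg and Hoxb8. Lymphocyte markers summed to at most 0.119 CPM in IRF2_KO and 0.0890 CPM in Parental libraries, with Cd3e, Cd4, Cd8a, Ms4a1 and Ncr1 at 0.

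The modifier, its activating and conjugating enzymes and its protease had more RNA in IRF2_KO than in Parental libraries, and the ligase did not pass the test. Isg15, Uba7, Ube2l6 and Usp18 rose, with fold changes between 2.51 for Ube2l6 and 70.0 for Usp18. Thus 4 of 5 members were called, all higher; of 13353 genes tested, 47.2% were called in either direction and 23.6% were called higher. Every member was above the low-count filter in all 3 libraries of each group. The median log2 fold change was 2.60 over the 5 members and -0.01 over all tested genes.

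Markers of other myeloid cells moved in the same libraries, and in bulk RNA fewer cells of a type and less RNA per cell cannot be told apart. The counts below stand beside 23.6% of all tested genes called higher and 23.6% called lower. Macrophage markers were higher in 9 of 11 tested genes and lower in 1, and their sum was 1704 to 1708 CPM in the IRF2_KO libraries and 627 to 636 CPM in the Parental libraries. Among them Lpl, Csf1r, Gpnmb and Lyz2 rose by 2.72, 1.96, 1.53 and 1.32 on the log2 scale. Siglec1, with 8 reads in Parental, Fcgr1, Adgre1 and Mrc1 were also higher (4.69, 1.39, 0.44 and 0.44). The 1 that fell was Cd14 (-0.99). Too low to be tested were C1qb, with no read, and C1qa and C1qc, with at most 2 reads over a group. Cd163, also untested, had no read in IRF2_KO and 23 in Parental. Progenitor markers were lower in 5 of 8 tested genes and higher in 1, Ctsg (0.13), a call lost under 7 of 15 alternatives. They summed to 9890 to 11328 CPM in IRF2_KO and 12007 to 13008 CPM in Parental. Kit, Elane, Cebpa and Myb fell by 3.26, 1.69, 0.53 and 0.44 on the log2 scale. Mpo fell by 0.52, and Prtn3 and Hoxb8 did not pass (0.08 and 0.09). Within the sum, the mean of Elane was 924 CPM in IRF2_KO and 2988 CPM in Parental. Those of Prtn3 and Ctsg were 4235 and 4193 CPM in IRF2_KO, and 4006 and 3828 CPM in Parental. Of 9 neutrophil markers 5 were higher, among them Ltf, Cxcr2 and Ngp (1.38, 1.03 and 0.92), and 1 was lower, Camp (-0.92). Mmp9 and Mmp8 were also called higher (0.65 and 0.16), calls lost under 5 and 1 of 16 alternatives. Dendritic cell markers were higher in 3 of 4 tested genes, Zbtb46, Clec10a and Clec9a (2.25, 1.31 and 1.36, the last call lost on the log2(RPKM + 1) scale), and lower in 1, Flt3 (-0.85). Mast cell, erythroid and fibroblast markers summed to at most 4.31, 1.34 and 0.981 CPM in IRF2_KO and 3.95, 0.870 and 0.297 CPM in Parental, and the 2 of them that were tested, Mcpt8 and Klf1, did not pass. The part of these shifts in the ISG15 system was not tested.

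Isg15 (Entrez gene 100038882, chromosome 4, 156199424 to 156200818), the modifier itself, had 250, 324 and 330 reads in the IRF2_KO libraries and 19, 15 and 13 reads in the Parental libraries. Scaled, these were 8.40, 11.3 and 9.81 CPM in IRF2_KO, and 0.479, 0.445 and 0.323 CPM in Parental. Every IRF2_KO library lay above every Parental library, and the lowest of the 3 IRF2_KO values was library 1. The mean was 9.83 ± 1.45 CPM in IRF2_KO and 0.416 ± 0.0821 CPM in Parental (SD, n = 3 each), a log2 fold change of 4.56 (SE 0.18, edgeR adjusted p = 7.41e-13). That was the 34th largest increase among the 13353 genes.

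The tables count reads that align to a single place, and Isg15 has a near copy. A processed pseudogene of GENCODE M21 matched the Isg15 transcript at 95.2% identity over 482 of 756 bases. It lies where the tables list Gm9706 (chromosome 17, 46406981 to 46407624), inside the gene Zfp318. Gm9706 had 11, 18 and 13 reads in IRF2_KO and 4, 1 and 1 reads in Parental. Its log2 fold change was 3.03 (SE 0.57, edgeR adjusted p = 0.000268), and that of Zfp318 was 0.66 (SE 0.08, edgeR adjusted p = 1.86e-06). How many Isg15 reads were lost or misplaced between these loci was not tested, so the levels of Isg15 are uncertain. A long non-coding RefSeq gene, Gm46878, also overlaps the span of Isg15.

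Uba7 (Entrez gene 74153, chromosome 9, 107975567 to 107984056), the activating enzyme that starts the cascade, had the most RNA per unit length of the 5 genes in both groups. It had 285, 298 and 289 CPM in the IRF2_KO libraries and 43.7, 51.4 and 48.5 CPM in the Parental libraries. The groups were far apart and each was tight, with means of 291 ± 6.69 CPM in IRF2_KO and 47.9 ± 3.88 CPM in Parental (SD, n = 3 each). Uba7 rose 6.08-fold (log2 fold change 2.60, SE 0.05, edgeR adjusted p = 7.36e-17). A GENCODE M21 gene on the same strand, Gm20661, overlaps its end and shares 208 bases with its transcript at 98.6% identity, so the Uba7 count is uncertain by the reads of that stretch.

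Ube2l6 (Entrez gene 56791, chromosome 2, 84798828 to 84810003), the conjugating enzyme that receives ISG15 from UBA7, had the least RNA per unit length. It was read 24, 29 and 33 times in IRF2_KO and 13, 11 and 18 times in Parental. This gave 0.806, 1.01 and 0.981 CPM in the IRF2_KO libraries and 0.328, 0.326 and 0.447 CPM in the Parental libraries. All IRF2_KO values were higher than all Parental values, although each rests on few reads. The fold change was 2.51 (log2 1.33, SE 0.29, edgeR adjusted p = 0.000926). Transcripts of 23 other genes shared a stretch of at least 100 bases at 85% identity or more with the longest Ube2l6 transcript, the longest being 509 of 1560 bases, so reads from such stretches may be missing. The closest relative of this enzyme, Ube2l3, which serves ubiquitin, had 128 ± 2.08 CPM in IRF2_KO and 131 ± 2.10 CPM in Parental (SD, n = 3 each) and did not pass the test (log2 fold change -0.02, edgeR adjusted p = 0.664).

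Herc6 (Entrez gene 67138, chromosome 6, 57580992 to 57665136), the ligase that selects the proteins to be modified in mouse cells, had 12.8, 11.4 and 11.5 CPM in the IRF2_KO libraries. In the Parental libraries it had 13.6, 11.6 and 11.7 CPM. The groups overlapped, and library 1 was the highest in each. Its log2 fold change was -0.05 (SE 0.08, edgeR adjusted p = 0.645), with an approximate 95% interval of -0.22 to 0.11 from the SE. A GENCODE M21 gene on the same strand, Gm45193 (chromosome 6, 57485121 to 57626030), overlaps Herc6 and has a transcript that shares 688 bases with it at 100% identity, and a pseudogene, Gm19244, lies within the span of Herc6. The stretch shared with Gm45193 makes the Herc6 count uncertain. Gm19244 lies on the opposite strand and was not among the transcripts found to share a stretch with Herc6. Its effect on the count was not tested.

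Usp18 (Entrez gene 24110, chromosome 6, 121245906 to 121270917), the protease, had the largest fold change of the 5 genes. It had 50.6, 54.0 and 53.2 CPM in the IRF2_KO libraries and 0.732, 0.593 and 0.895 CPM in the Parental libraries. No IRF2_KO library came near a Parental one: the Parental libraries held 20 to 36 reads and the IRF2_KO libraries 1508 to 1790. The log2 fold change of 6.13 (SE 0.10, edgeR adjusted p = 2.73e-18) was the 21st largest increase of all genes tested. A long non-coding gene on the opposite strand, Gm44148, overlaps Usp18 and shares 126 of 1771 transcript bases with it. Whether strand was used in counting is not given in the sources used here, so reads of that shared stretch cannot be told apart.

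**Figure D1:**
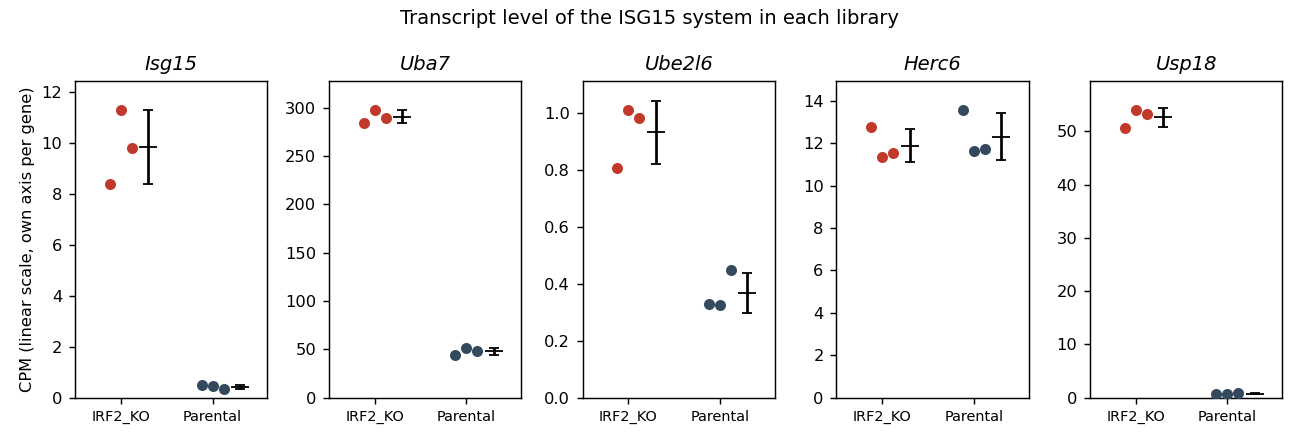
CPM (TMM-scaled, linear axis from 0, own scale for each gene) of the 5 genes in each IRF2_KO library (red) and each Parental library (dark blue); black dashes and bars are the mean ± SD of 3 libraries. The groups are apart for Isg15, Uba7, Ube2l6 and Usp18 and overlap for Herc6 (11.4 to 12.8 CPM in IRF2_KO, 11.6 to 13.6 CPM in Parental).

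**Figure D2:**
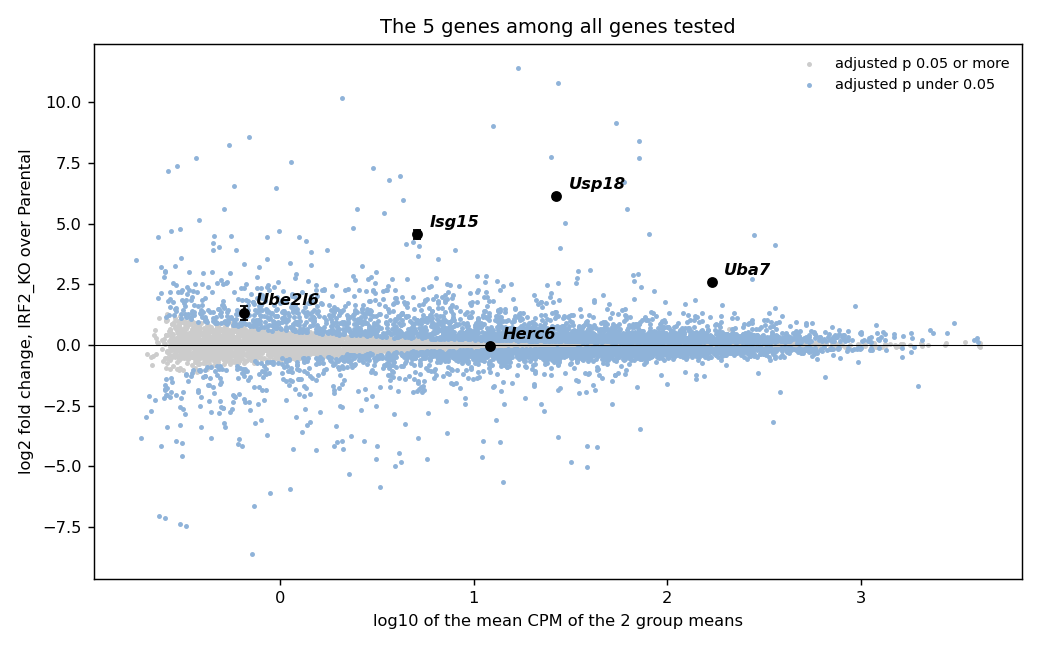
Log2 fold change of IRF2_KO over Parental against the log10 of the mean CPM of both groups for 13353 genes, blue where the edgeR adjusted p was under 0.05 and grey otherwise; black points with SE bars are the 5 genes. Usp18 (6.13) and Isg15 (4.56) lie near the top, Uba7 (2.60) is high for an abundant gene, and Herc6 (-0.05) lies on the zero line.

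Levels of different genes were compared per unit length, on the deposited RPKM scale, which divides reads by gene length and library total and was adjusted by the authors with a size factor. In the IRF2_KO libraries the order was the same in all 3: Uba7 at 87.6 to 92.6 RPKM, Usp18 at 27.8 to 30.0 RPKM, Isg15 at 10.8 to 14.7 RPKM, Herc6 at 2.12 to 2.35 RPKM and Ube2l6 at 0.565 to 0.716 RPKM. None of these ranges overlapped. In the Parental libraries Uba7 again came first, at 13.5 to 15.8 RPKM. Herc6, however, came next at 2.14 to 2.51 RPKM, above Isg15 at 0.415 to 0.618 RPKM and Usp18 at 0.325 to 0.491 RPKM. Those last 2 ranges overlapped, so their order is not resolved, and Ube2l6 was lowest at 0.229 to 0.313 RPKM. The modifier and the protease therefore passed the ligase in IRF2_KO libraries, while the conjugating enzyme stayed last. Only reads aligned to a single place were counted, and Isg15 and Ube2l6 share stretches with other loci. Their RPKM may therefore be too low, by an amount that was not tested.

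**Figure D3:**
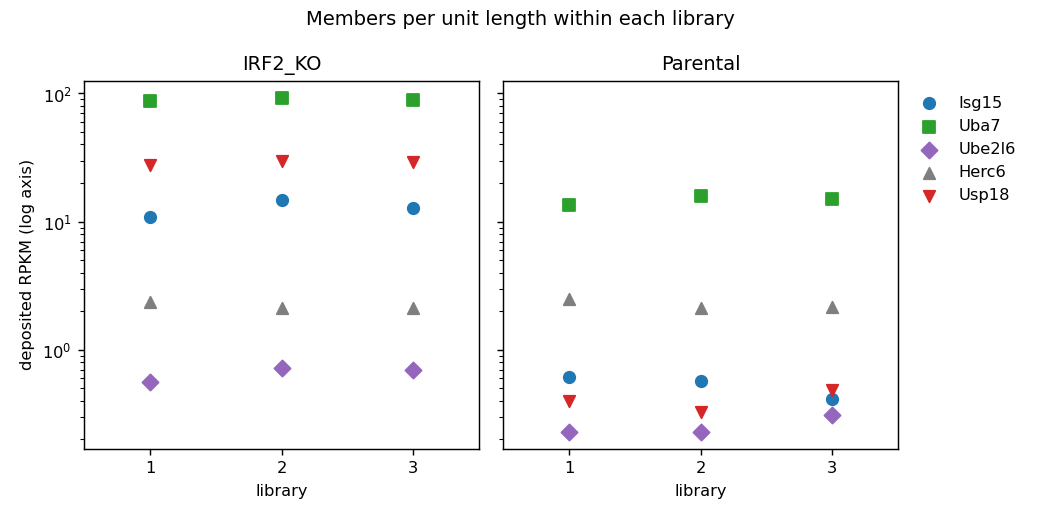
Deposited RPKM (log axis) of the 5 genes in libraries 1 to 3 of IRF2_KO (left) and of Parental (right). Usp18 and Isg15 lie above Herc6 in every IRF2_KO library and below it in every Parental library; Ube2l6 is lowest in all 6.

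Ratios within a library show how the counted reads of the members stood to each other, with the same limit for Isg15 and Ube2l6. Isg15 RPKM per Usp18 RPKM was 0.388, 0.490 and 0.432 in the IRF2_KO libraries and 1.53, 1.76 and 0.846 in the Parental libraries. The protease thus exceeded the modifier in all 3 IRF2_KO libraries and in 1 of 3 Parental libraries. The log2 ratio differed by -1.60, lower in IRF2_KO (exact two-sided permutation test, p = 0.1, the smallest p that 3 against 3 libraries allow). Uba7 RPKM per Ube2l6 RPKM was 155, 129 and 129 in IRF2_KO and 58.4, 69.0 and 47.6 in Parental, so the activating enzyme exceeded the conjugating enzyme throughout, and by more in IRF2_KO (difference of the log2 ratio of Ube2l6 to Uba7 -1.25, exact permutation p = 0.1). Isg15 RPKM per Herc6 RPKM was 4.59, 6.94 and 5.94 in IRF2_KO and 0.247, 0.267 and 0.193 in Parental, a log2 difference of 4.62 (exact permutation p = 0.1). With 3 such ratios none could pass 0.05 in this design, and the Benjamini-Hochberg value was 0.1 for each.

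Of the other ligases reported to use ISG15, 1 of 2 was called, and both were without IRF2_KO library 2. For this count and the next, the share called over all tested genes was 47.2%. Trim25, an interferon-inducible ligase, had 214 ± 2.85 CPM in IRF2_KO and 139 ± 3.05 CPM in Parental (SD, n = 3 each; log2 fold change 0.62, edgeR adjusted p = 9.02e-10). Arih1, a ring-between-ring ligase, had 219 ± 14.7 CPM in IRF2_KO and 205 ± 7.50 CPM in Parental and did not pass. Proteases of ubiquitin that also react with ISG15 were called in 1 of 5 tested members, Usp16, which was lower (log2 fold change -0.14, edgeR adjusted p = 0.0307). That call was lost under 7 of 16 alternatives, DESeq2 among them. The count of this list was 0 of 5 under DESeq2, and also without IRF2_KO library 2 or 3. It reached 3 of 5 without IRF2_KO library 1. Usp14, Usp5 and Usp21 had log2 fold changes of -0.13, -0.08 and 0.09, and Usp13 had no read in any library.

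In the HERC family of large ligases, Herc3, whose gene lies on the same chromosome as Herc6, rose to 10.6 ± 0.541 CPM in IRF2_KO, against 7.91 ± 0.388 CPM in Parental (log2 fold change 0.43, edgeR adjusted p = 0.000463). Herc4 was called higher (0.15, edgeR adjusted p = 0.0398), though not under 7 of 16 alternatives, among them scaling by library size alone and leaving out IRF2_KO library 1 or 3 or Parental library 2 or 3. Herc1 and Herc2 did not pass, with log2 fold changes of 0.20 and -0.07.

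Enzymes that serve the other ubiquitin-like modifiers were called at log2 fold changes no larger than 0.52 in either direction. Among activating enzymes of other modifiers none of 9 tested was higher and 3 were lower, among them Sae1, which serves SUMO (log2 fold change -0.19), and Mocs3, which serves URM1 (-0.37). Uba3, for NEDD8, was at 0.12 and did not pass. Of 14 conjugating enzymes 1 was higher, Atg10, which acts in autophagy (0.52), and 3 were lower, Ube2e1 (-0.37), Ufc1 (-0.13) and Ube2k (-0.13). The calls of Ufc1 and Ube2k were lost under 4 and 6 of 16 alternatives. The median log2 fold change was -0.08 for each of these lists and -0.01 for all tested genes, and the counts called were 3 of 9 and 4 of 14, beside a background of 47.2%. Those counts moved with the settings. Without IRF2_KO library 1, 5 of 9 activating enzymes were called. Of the conjugating enzymes 7 of 14 were called on library size alone, and 2 of 14 without IRF2_KO library 3 or Parental library 2.

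Among 17 tested modifiers other than ISG15, 4 rose and 2 fell, with a median log2 fold change of -0.01. Beside this, 23.6% of all tested genes were called higher and 23.6% lower. Map1lc3a, an autophagy modifier joined to lipids, had 8.40 ± 0.953 CPM in IRF2_KO and 3.55 ± 0.224 CPM in Parental (log2 fold change 1.24, edgeR adjusted p = 6.20e-08). Its relatives Gabarap and Map1lc3b rose by 0.30 each, and Ubl5 by 0.19. Urm1 fell by 0.47 on the log2 scale, and Sumo3 was called lower (-0.12, edgeR adjusted p = 0.0347), a call lost under 8 of 16 alternatives. The ubiquitin gene Ubb was at 0.02 and did not pass. Ubd, which encodes the interferon-inducible modifier FAT10, had no read in any library.

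The receptor pathway that USP18 restrains was read at all steps in both groups. Of 7 tested genes 6 rose and 1 fell, and the median log2 fold change was 0.26. Over all tested genes 23.6% were called higher and 23.6% lower. Irf9, which joins STAT2 in the factor that binds the interferon-stimulated response element, had 40.5 ± 0.785 CPM in IRF2_KO and 7.41 ± 0.265 CPM in Parental (log2 fold change 2.45, edgeR adjusted p = 2.31e-15). Stat2, the partner through which USP18 reaches the receptor, rose by 0.52, and Ifnar2, the chain to which it binds, by 0.26. Ifnar1 was called lower (-0.13, edgeR adjusted p = 0.0310), a call lost under 6 of 16 alternatives, DESeq2 among them.

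Of 7 other feedback regulators of interferon signalling 3 rose and 1 fell, beside 23.6% called higher and 23.6% called lower among all tested genes. Socs1, an inhibitor of JAK kinases, had 21.8 ± 0.268 CPM in IRF2_KO and 10.4 ± 0.0873 CPM in Parental (log2 fold change 1.07, edgeR adjusted p = 4.24e-10). Ptpn1, a tyrosine phosphatase, rose by 0.39 and Pias1, an inhibitor of STAT signalling, by 0.23. Skp2, part of a ubiquitin ligase reported to degrade USP18, fell by 0.27 on the log2 scale. Interferon genes themselves were at the edge of detection: 13 of 15 had no read in any library, and 3 counts, the upper limit that a count of 0 allows, correspond to 0.0751 to 0.103 CPM. Ifnb1 had 0, 2 and 1 reads in IRF2_KO and none in the 3 Parental libraries. Ifnk had 0, 1 and 0 reads in IRF2_KO and 2, 0 and 1 reads in Parental. This limit covers counting error only, and no interferon gene was tested. Only reads aligned to a single place were counted, so reads that interferon genes share with each other or with other loci would be missing. How many such reads there were was not tested, so a count of 0 does not show that a gene was silent.

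Among genes whose proteins have been reported to accept ISG15, 6 of 12 tested rose and 2 fell, with a median log2 fold change of 0.08. The share of all tested genes was 23.6% called higher and 23.6% called lower. Among those that rose were Ddx58, the RNA sensor RIG-I, with 40.6 ± 1.41 CPM in IRF2_KO and 9.23 ± 0.285 CPM in Parental (log2 fold change 2.14, edgeR adjusted p = 1.59e-14), and Eif2ak2, the kinase PKR, which rose by 1.04. Ifih1, the RNA sensor MDA5, rose by 0.51. Those that fell were Eif4e2 (-0.17) and Bag3 (-0.14), and the call of Bag3 was lost under 8 of 16 alternatives, DESeq2 among them. Irf3 was at -0.05 and did not pass. ISG15 released from cells is known to bind the integrin LFA-1; of its chains, Itgb2 rose by 0.92 and Itgal fell by 0.45 on the log2 scale.

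**Figure D4:**
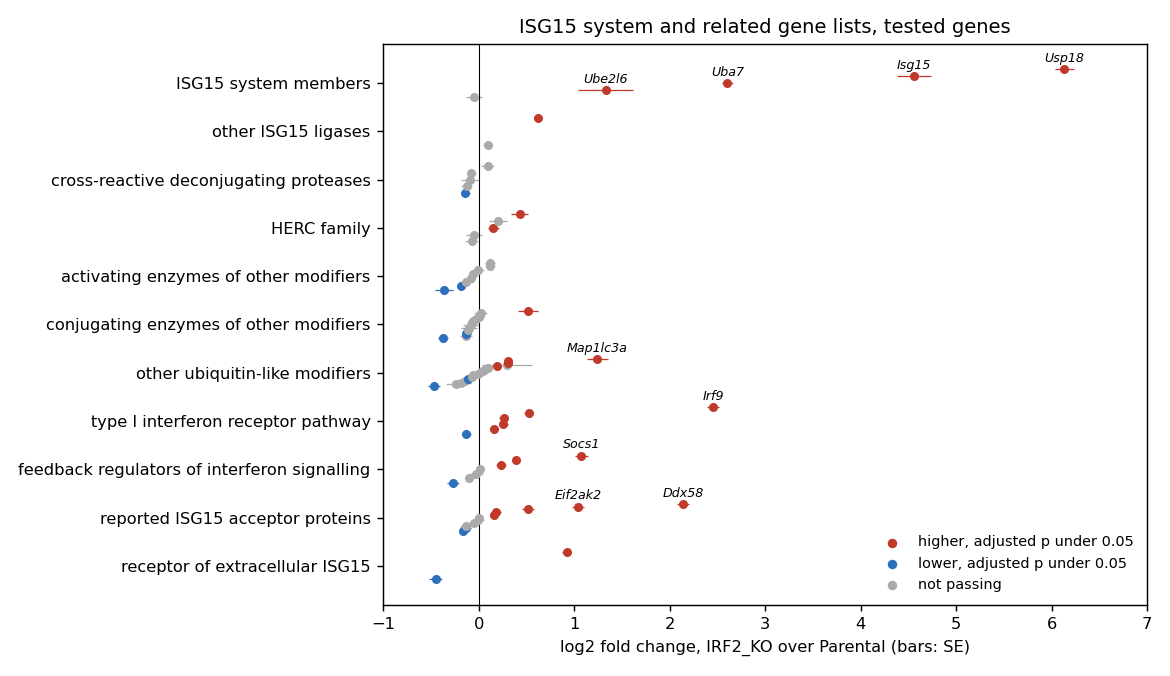
Log2 fold change of IRF2_KO over Parental (bars, SE) for the tested genes of each list other than the cell type markers, red where higher and blue where lower at an edgeR adjusted p under 0.05, grey otherwise; genes beyond 1 are named and a few genes not reported here are not drawn. Isg15 (4.56) and Usp18 (6.13) lie farther to the right than the other genes drawn, followed by Uba7 (2.60), Irf9 (2.45) and Ddx58 (2.14).

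The genes whose profiles over the 6 libraries were most like each member were found by the Euclidean distance between log2 CPM values, each gene centred on its own mean. Nearest to Isg15 were Irf7, at 9.20 CPM in IRF2_KO and 0.487 CPM in Parental (distance 0.38), Trim30c (0.43) and Lgals3bp (0.53). Trim30c had no Parental read and was at least 41.1-fold higher in IRF2_KO, taking 3 reads over the Parental libraries as the floor. Usp18 was nearest to Armh4 (0.43), Xaf1 (0.56), which was at least 158-fold higher by the same floor, and Trim30a (0.74). Around Uba7 lay Cbs, Atp11a and Sdc3, all at a distance of 0.22 to 0.23. Ube2l6 was nearest to Ppp1r13b (0.13), Tmc8 (0.22) and Gm29933 (0.24). Herc6 had the closest companions, Tmem123 (0.05), Esco1 (0.06) and Trim59 (0.06), none of which passed the test. The distances of Trim30c and Xaf1 depend on the prior count of 2, since no Parental level was measured for them, so their places in this order are not resolved. No member was among the 3 nearest of another.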

How the data were processed

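Transcripts of 6 libraries (3 IRF2_KO, 3 Parental) were compared. Per the submitters' processing notes the aligner was GSNAP and the build GRCm38; its version, the gene annotation and the use of strand in counting were not given in the sources used here. Per the labels' protocols a stranded total RNA kit was used, but the labels also name polyadenylated RNA, and this was not settled. Per the file headers, each deposited count is the number of reads uniquely aligned to a gene model, and the deposited RPKM values carry a size factor. RPKM and counts differed by 1 factor per library over 11860 genes with 20 or more reads, so both hold the same data. Names came from RefSeq for 31049 IDs and GENCODE M21 for 78.

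Counts were tested in R 4.3.3 with edgeR 4.0.16 (filterByExpr, TMM, robust quasi-likelihood F-test, two-sided, Benjamini-Hochberg over 13353 genes, threshold 0.05). SE was derived as log2 fold change over the root of F. The procedure was tested on simulated data. Groups came from the group label; libraries are numbered in record order and pair nothing. Alternatives were scaling by library size alone, by RLE or by upper-quartile factors, limma-voom (limma 3.58.1), DESeq2 1.42.0, omitting the filter, keeping genes with 1 CPM in 3 libraries, removing the 100 most abundant genes, limma-trend on log2(RPKM + 0.1) and log2(RPKM + 1), whose fold changes understate those of low genes, and leaving out each library.

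Members, lists and motifs were chosen with earlier results of these data known. Besides the members and Irf2, the rule names up to 4 genes per list with the smallest adjusted p, the nearest tested coding genes beside each member, the 3 most alike profiles (log2 CPM, prior count 2) and Ube2l3; further genes were named after their values were seen. Some genes of the lists enter the counts but are not reported here by name.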

Additional observations from a re-analysis of the deposited data

How the results depend on the processing

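The 4 calls (Isg15, Uba7, Ube2l6, Usp18) and their direction held under every alternative that gave a value; Ube2l6 was too low for the filter of 1 CPM in 3 libraries, which left 3 members called of 4. Herc6 was called under none of 16 alternatives, with adjusted p from 0.407 to 0.855, and its log2 fold change turned positive without Parental replicate 1 (0.024, adjusted p = 0.844); the cause was not tested. Leaving out each library in turn gave log2 fold changes of 4.39 to 4.68 for Isg15, 2.54 to 2.65 for Uba7, 1.24 to 1.5 for Ube2l6, -0.098 to 0.024 for Herc6 and 6.01 to 6.29 for Usp18, with 4 members called each time. On the log2(RPKM + 1) scale the values were 3.15 for Isg15, 0.40 for Ube2l6 and 4.42 for Usp18, lower by the construction of that scale. Genes called over the whole table numbered 5256 to 6216 with 1 library left out, and library size alone gave 2788 higher and 3735 lower, against 3146 and 3150. Of the 77 tested genes of the related lists, which include Herc6, 22 were called higher and 14 lower. The share called over all tested genes was 47.2%, with 23.6% higher and 23.6% lower. For these lists library size alone gave 21 and 22, and DESeq2 gave 22 and 9. Leaving out 1 library gave 29 to 37 calls in all, against 36. The log2 differences of the ratios kept their direction, at -1.92 to -1.39 for Isg15 to Usp18, -1.38 to -1.11 for Ube2l6 to Uba7 and 4.48 to 4.78 for Isg15 to Herc6. Ube2l6 rests on 86 reads in IRF2_KO and 42 in Parental, which limits its precision. No paired analysis was possible because the labels give no replicate numbers.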

Other observations

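The genes beside the members on their chromosomes showed smaller differences than the members that rose, which were picked here by that rise. Over all tested genes 47.2% were called in either direction, the background for the neighbours described below. Beside Isg15, Agrn, which encodes the matrix protein agrin, had 80.7 ± 1.15 CPM in IRF2_KO and 45.6 ± 3.35 CPM in Parental (SD, n = 3 each; log2 fold change 0.82, edgeR adjusted p = 7.53e-10), whereas Perm1 on the other side was at 0.02 and did not pass. Inka1, whose span lies 167 bases from that of Uba7, rose by 0.32, and Traip on the other side was at -0.0018 and did not pass. Beside Usp18, Tuba8 had 137 ± 10.6 CPM in IRF2_KO and 98.7 ± 4.03 CPM in Parental (log2 fold change 0.47, edgeR adjusted p = 1.58e-06), and M6pr, 1037803 bases away, rose by 0.24. Timm10, beside Ube2l6, fell by 0.36 on the log2 scale, and Clp1 did not pass (-0.09). Neither neighbour of Herc6 passed, with log2 fold changes of 0.13 for Ppm1k and -0.08 for Pyurf.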
